A study of Homo sapiens with 4 samples.

Results

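The alpha and beta globin gene clusters of DU145, a prostate cancer cell line established from a brain metastasis, are described here by their peaks of CTCF and of histone H3 acetylated at lysine 27 (H3K27ac). Peaks were taken by position in hg19: every peak with its summit between 60 and 300 kb of chromosome 16 for alpha globin, and between 5.15 and 5.4 Mb of chromosome 11 for beta globin. The 240 kb of the first window held 11 CTCF and 20 H3K27ac peaks, and the 250 kb of the second held 2 CTCF peaks and 0 H3K27ac peaks. That is 33 peaks of 86516 in both lists together, 13 of 36152 for CTCF and 20 of 50364 for H3K27ac. The windows surround 8 globin genes, HBZ, HBA2 and HBA1 on chromosome 16 and HBB, HBD, HBG1, HBG2 and HBE1 on chromosome 11.

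The series has 4 libraries of unperturbed cells in culture, with 1 library for each of DU145 CTCF, DU145 H3K27ac, DU145 input and LNCaP input. No treatment or genotype other than the cell line is labelled, and the label was not checked against marker genes, whose positions in hg19 were not used here. The CTCF and H3K27ac lists were analysed; input was not analysed here. No value has a replicate error, no test was made, and no RNA was measured, so the expression of the globin genes in these cells is not known from these data. Prostate epithelial cells do not normally use globin genes, which are genes of the red cell lineage.

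As background, each globin cluster holds embryonic, fetal or adult genes in the order in which they are used during development, and each depends on distant enhancers. The enhancers of the alpha cluster lie in introns of the neighbouring housekeeping gene NPRL3, and the best known of them is HS-40. The beta cluster depends on the locus control region beyond HBE1. CTCF binds insulators and loop anchors, and the DNase-hypersensitive sites 3'HS1 and HS5 at either end of the beta cluster are known CTCF sites in many cell types. H3K27ac is found on nucleosomes of promoters and enhancers in use. The alpha cluster lies among broadly expressed genes near the chromosome end, and the beta cluster lies inside a large array of olfactory receptor genes.

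In the gene order of RefSeq, HBZ, HBM, HBA2, HBA1 and HBQ1 followed POLR3K, SNRNP25, RHBDF1, MPG and NPRL3, and preceded LUC7L and FAM234A. RefSeq also listed HS-40 among the synonyms of NPRL3. On chromosome 11, an unbroken run of 16 protein-coding olfactory receptor genes preceded HBB, up to MMP26. RefSeq was used in build GRCh38.p14 for names and order only, since the peaks are in hg19. Positions of the beta genes in hg19 are the approximate ones that came with the choice of windows, with HBB near 5.247 Mb, HBE1 near 5.29 Mb and the locus control region ending near 5.313 Mb. Where an alpha gene is placed beside a peak below, the placement is from general knowledge of hg19 and was not checked against gene models of that build.

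Promoter sequences of RefSeq (GRCh38.p14, 250 bases before to 50 after the start) are shown to set a gene of each cluster beside its surroundings by CpG dinucleotides, which are written in capitals. The genes are HBD (delta globin, a minor adult chain) and HBM (mu globin), and the housekeeping genes to either side of the alpha globins, NPRL3 (a subunit of the GATOR1 complex, which restrains mTORC1) and LUC7L (a splicing factor).
HBD: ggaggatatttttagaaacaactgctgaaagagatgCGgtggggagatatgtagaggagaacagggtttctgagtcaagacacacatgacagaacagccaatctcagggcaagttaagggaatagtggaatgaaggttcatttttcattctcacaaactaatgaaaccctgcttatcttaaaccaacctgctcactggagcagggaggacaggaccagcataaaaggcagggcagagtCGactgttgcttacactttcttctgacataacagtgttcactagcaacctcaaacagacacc
HBM: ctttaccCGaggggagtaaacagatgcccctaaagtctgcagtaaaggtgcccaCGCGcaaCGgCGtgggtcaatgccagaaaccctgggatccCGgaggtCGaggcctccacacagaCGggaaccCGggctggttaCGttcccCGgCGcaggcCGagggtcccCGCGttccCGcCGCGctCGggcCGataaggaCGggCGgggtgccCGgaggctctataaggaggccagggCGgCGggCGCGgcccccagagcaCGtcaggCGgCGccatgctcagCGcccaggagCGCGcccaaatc
NPRL3: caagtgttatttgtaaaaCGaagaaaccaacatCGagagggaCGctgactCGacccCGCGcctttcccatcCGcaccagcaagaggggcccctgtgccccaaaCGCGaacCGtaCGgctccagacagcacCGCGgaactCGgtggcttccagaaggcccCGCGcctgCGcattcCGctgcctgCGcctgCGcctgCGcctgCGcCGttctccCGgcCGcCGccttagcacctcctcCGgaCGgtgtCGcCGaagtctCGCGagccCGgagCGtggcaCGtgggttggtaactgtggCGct
LUC7L: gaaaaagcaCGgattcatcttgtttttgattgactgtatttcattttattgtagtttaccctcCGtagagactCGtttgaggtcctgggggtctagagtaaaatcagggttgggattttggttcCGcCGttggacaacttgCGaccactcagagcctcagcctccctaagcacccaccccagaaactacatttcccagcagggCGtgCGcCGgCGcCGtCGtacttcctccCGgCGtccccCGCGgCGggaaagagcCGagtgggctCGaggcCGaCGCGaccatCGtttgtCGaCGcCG
HBD had 2 CpG and 44.7% G+C in these 300 bases, and HBM had 33 CpG and 69.3% G+C. NPRL3 had 36 CpG and LUC7L 26, and the median over 35116 promoters of the table was 14. HBM, in the alpha cluster, lay within the range of its housekeeping neighbours: 29 in POLR3K, 28 in SNRNP25, 40 in RHBDF1, 34 in MPG and 37 in FAM234A. HBD was as poor as the olfactory receptor genes beside the beta cluster, with 1 in OR51V1 and 2 in OR52A5. Short motifs were searched as letters on both strands, anywhere in the 300 bases, with overlapping matches counted. A match does not show that the motif stands where such a box works. The HBD promoter held the letters CCAAT, which are in 34.6% of all promoters of the table. In the printed sequence they lie in cagccaatctc, far upstream of the TATA-like run, so they are not shown to be a CCAAT box. That TATA-like run of the HBD promoter, ATAAAA, is in 16.0%. On the opposite strand the HBD promoter held the GATA factor motif AGATAA, which is in 10.3%. The letters CACCC were not in this HBD window, on either strand, and are in 59.9% of promoters. HBM held CACCC and TATAAG, which are in 59.9% and 5.59% of promoters. Of the 8 globin genes listed above, 1 had a promoter in the table.

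The alpha globin genes lay in a stretch without H3K27ac peaks, with acetylated regions on both sides and CTCF peaks towards its LUC7L end. The longest H3K27ac-free gap that lay wholly inside the window ran from 189291 to 242198 of chromosome 16, 52.9 kb. A longer one, of 85.4 kb, began at 285620 after the last acetylated peak of the window and ran on beyond it. By general knowledge of hg19, HBZ, HBM, HBA2, HBA1 and HBQ1 lie in this gap, the NPRL3 promoter lies at its telomeric edge, and the 3' end of LUC7L lies at its other end. Within the gap, the first 41.0 kb, from 189291 to 230309, held no peak of either list. A peak list has a threshold, so a gap shows only that no stretch passed it; the weakest H3K27ac peak of the window rested on 12 fragments and the weakest of the whole list on 10. HBA1 and HBA2 are near-identical copies, as are HBG1 and HBG2, and how reads that match both copies were treated is not stated, so the lack of peaks over these genes is uncertain.

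**Figure D1:**
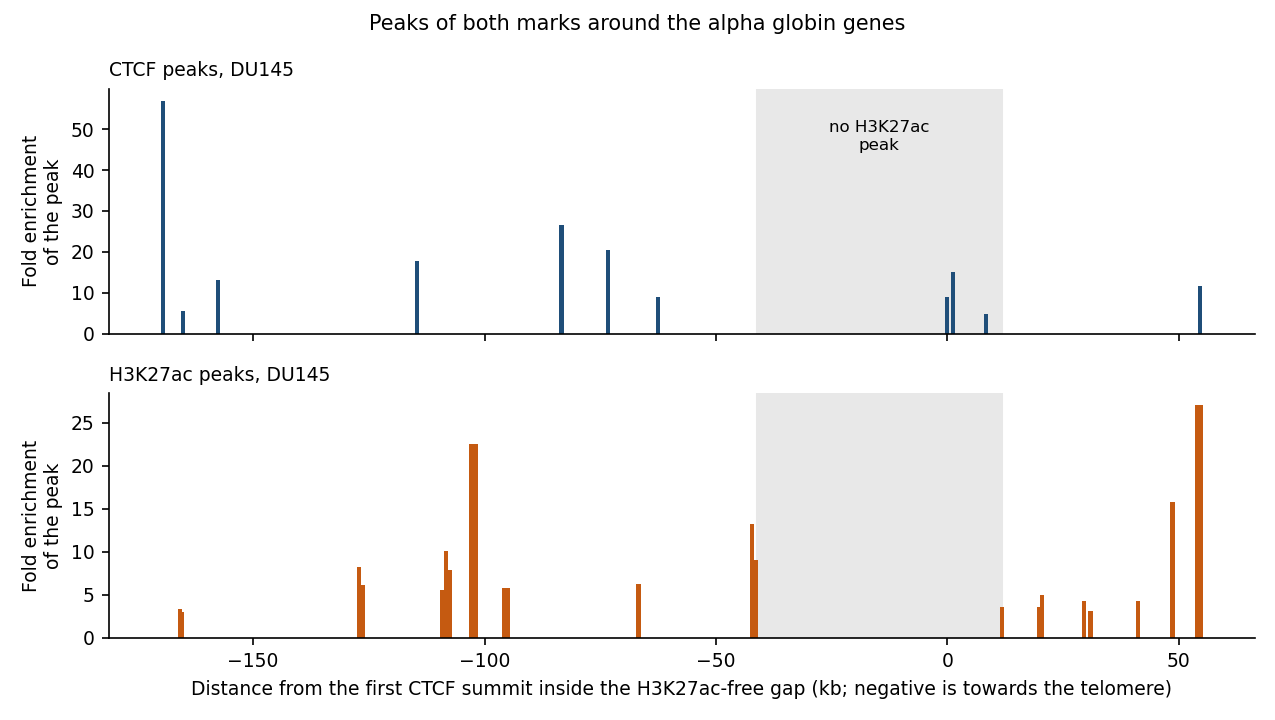
Fold enrichment of each CTCF peak (top) and H3K27ac peak (bottom) of the alpha globin window in DU145, 1 library each, by distance in kb from the first CTCF summit inside the H3K27ac-free gap (grey); bars of narrow peaks are drawn wider than the peaks. The 3 CTCF peaks inside the gap all lie near its right end, and the acetylated peaks stand on both sides of the grey area.

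The CTCF peaks nearest to the alpha globin genes differed in number and position on the 2 sides. On the telomeric side the nearest was at 167576 to 168109, where 38 fragments at the summit gave a fold enrichment of 8.91 (exact Poisson 95% interval 26.9 to 52.2). It lay 21.2 kb before the gap began, with the NPRL3-side acetylated peaks between it and the gap. On the other side, 3 CTCF peaks lay inside the gap. The first, at 230310 to 230549, had a fold of 8.90 from 30 fragments (interval 20.2 to 42.8), and the next, at 231449 to 231848, had a fold of 15.1 from 82 fragments (interval 65.2 to 101.8). Their summits were 1.17 kb apart and their intervals did not overlap, so within this library the second site was the stronger of the pair. By general knowledge of hg19, this pair lies at and just beyond HBQ1, the theta globin gene. The last of the 3, at 238768 to 238987, was weak, with a fold of 4.81 from 20 fragments (interval 12.2 to 30.9), and H3K27ac began again 3.21 kb after it. No CTCF peak lay in the 62.2 kb between 168110 and 230309.

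The acetylated side towards NPRL3 ended with a pair of peaks, at 187801 to 188528 with a fold of 13.2 from 54 fragments (interval 40.6 to 70.5), and at 188691 to 189290 with a fold of 9.10 from 37 fragments (interval 26.1 to 51.0). On the LUC7L side, the first peaks after the gap were weak. The peak at 242199 to 242487 had a fold of 3.59 from 14 fragments (interval 7.65 to 23.5), and those that followed up to 271802 had folds from 3.11 to 5.03. Strong H3K27ac came back only at 278596 to 279534, with a fold of 15.8 from 65 fragments, and at 283935 to 285619, with a fold of 27.1 from 112 fragments (interval 92.2 to 134.8). General knowledge of hg19 places the promoters of LUC7L and FAM234A there. Of the 12 H3K27ac peaks on the telomeric side, 9 had a −log10 q of 10 or more, and of the 8 on the other side 2 did. With those peaks alone, the gap ran from 189291 to 278595, 89.3 kb, so where acetylation begins again on the LUC7L side depends on the weak peaks.

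An isolated acetylated region lay where hg19 has the NPRL3 gene, whose introns hold the distant enhancers of alpha globin. The H3K27ac peak at 163086 to 164344 was 1259 bases wide, with a fold of 6.23 from 25 fragments (interval 16.2 to 36.9). It stood alone: the H3K27ac-free stretches beside it were 27.2 kb and 23.5 kb long. By length these ranked only 12706th and 13715th of the 49758 gaps between H3K27ac peaks, so such stretches are common. The acetylated pair at 103076 to 104300 was also set off, by 37.9 kb and 16.7 kb. General knowledge of hg19 places HS-40 within or next to this peak; neither its sequence nor its element boundaries were checked here. CTCF peaks stood on both sides of it, 5.75 kb before it at 156996 to 157337 (fold 20.4, 70 fragments) and 3.23 kb after it at 167576 to 168109 (fold 8.91, 38 fragments). A further strong CTCF peak lay at 146906 to 147233, with a fold of 26.5 from 115 fragments (interval 94.9 to 138), among the strongest 2.53% of the CTCF list. The fold of the acetylated peak ranked it within the strongest 34.0% of the H3K27ac list, below the NPRL3-side pair at the edge of the gap.

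The other H3K27ac of the window lay in regions of different length. Joined over distances up to 10 kb, the 20 peaks made 6 regions, and 5 of these had no CTCF summit inside. The share over all regions joined in this way was not computed, so the 5 are not read as a trait of this locus. Of all single H3K27ac peaks, 10.1% shared a base with a CTCF peak. The first, at 64500 to 65217, was weak, with folds of 3.35 and 3.00 from 13 and 16 fragments. The next, at 103076 to 104300, had 2 peaks with folds of 8.26 and 6.18; general knowledge places the start sites of POLR3K (an RNA polymerase III subunit) and SNRNP25 (a protein of the minor spliceosome) there. The third, at 120983 to 135922, had 5 peaks and its strongest, at 127173 to 128978, had a fold of 22.5 from 93 fragments (interval 75.1 to 113.9). RHBDF1 (an inactive rhomboid protein) and MPG (a DNA repair glycosylase) begin in this part of hg19, by the same knowledge. The peak in NPRL3 and the pair at the edge of the gap were the fourth and the fifth. The sixth, on the LUC7L side, was 43.4 kb long with 8 peaks and 1 CTCF summit.

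Between neighbouring CTCF summits of the window there were 10 intervals, from 1.17 to 62.5 kb long with a median of 10.4 kb. H3K27ac summits lay in 6 of these and were missing from 4. The share over all CTCF intervals of the list was not computed. The longest of the 10 was the one that holds the alpha globin genes. It had H3K27ac summits only on its NPRL3 side, where the first acetylated peak began 19.7 kb after the CTCF peak, and its last 41.0 kb had none. The next longest of the 10, of 46.2 and 43.0 kb, held 8 and 2 H3K27ac summits. The ranking depends on where the window ends. The interval from its last CTCF summit, at 285042, to the next one beyond it, at 368791, was longer, 83.7 kb, with 0 H3K27ac summits.

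CTCF peaks at the alpha locus ranged widely in strength. Fold enrichments ran from 4.81 to 57.0 with a median of 13.2, against a median of 9.52 for the whole list, and 7 of the 11 exceeded that median. At the alpha locus 10 of 11 CTCF peaks had a −log10 q of at least 10, against 79.8% of the whole CTCF list, and 11 of the 20 H3K27ac peaks did, against 43.4% of the H3K27ac list. The highest fold of the whole CTCF list was the first peak of chromosome 16, at 60792 to 61243, only 0.973 kb inside the window (198 fragments, interval 171 to 228). Whether reads of this peak and of the weak peaks up to 65423 also match other places was not checked. How such reads were treated is not stated, so the strength of this site, and the upper end of the range, are uncertain. Among the other CTCF peaks of the window, the folds at 146906 and 156996, inside NPRL3, were the only ones in the strongest 10% of the list.

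**Figure D2:**
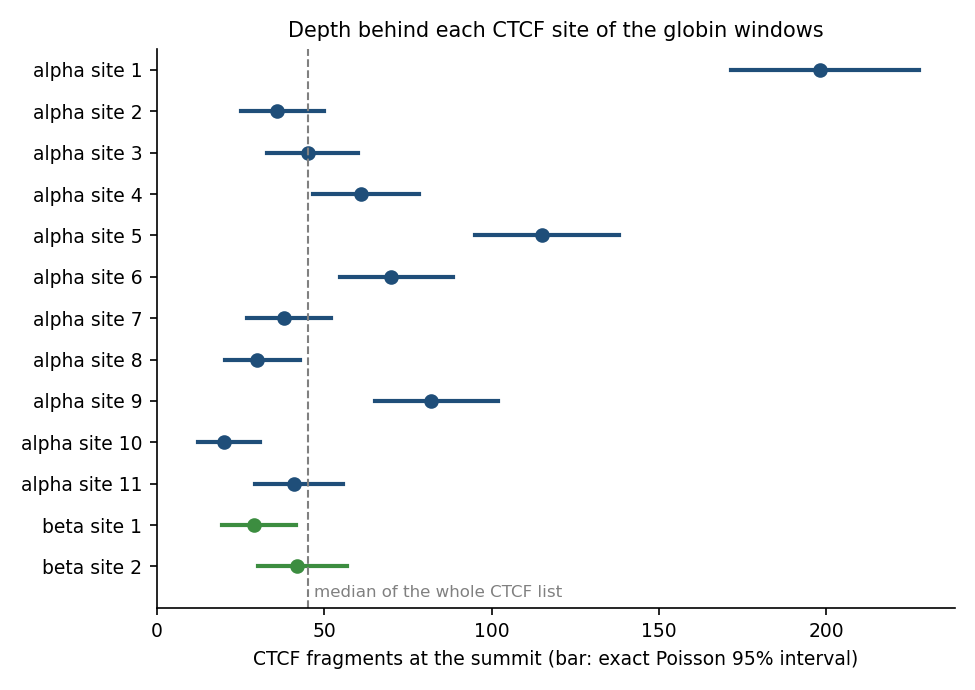
Number of CTCF fragments at the summit (x axis) of the 11 alpha and 2 beta sites (y axis, numbered along the chromosome), with exact Poisson 95% intervals as bars and the median of the whole CTCF list, 45, as a dashed line. Alpha site 1, at the chromosome end, has 198 fragments, and the 2 beta sites have 29 and 42 with overlapping intervals.

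Most CTCF peaks of the alpha locus did not overlap H3K27ac, as in the whole CTCF list. Of the 11 CTCF peaks at the alpha locus, 2 shared at least 1 base with an H3K27ac peak, 18.2%, against 14.2% of all CTCF peaks. The Wilson 95% interval of 5.14 to 47.7 treats the 11 as independent draws. They are all the CTCF peaks of 1 window in 1 library, so it is no test of this difference. Of the 20 H3K27ac peaks 2 shared a base with CTCF, against 10.1% of all H3K27ac peaks. With the CTCF summit inside an H3K27ac peak the count was 1 of 11, against 8.4% of the list, and within 1 kb it was 2 of 11, against 19.9%. One of the overlaps, at 65213 to 65423, was of 5 bases only. The other was the CTCF peak at 284873 to 285232 (fold 11.6, 41 fragments), which lay wholly inside the strongest H3K27ac peak of the window, with summits 15 bases apart.

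The beta globin genes lay far from any H3K27ac peak, between 2 CTCF peaks. The first was at 5226089 to 5226305 of chromosome 11, with its summit 20.8 kb below the given position of HBB, the side on which 3'HS1 is known. Its fold of 8.62 rested on 29 fragments (interval 19.4 to 41.6). The second was at 5312553 to 5312832, with its summit 22.7 kb above HBE1 and 0.306 kb before the given end of the locus control region, where HS5 is known. It had a fold of 12.3 from 42 fragments (interval 30.3 to 56.8). The intervals overlap, and the sites were not ranked at this depth. Their summits were 86.5 kb apart, and HBB, HBD, HBG1, HBG2 and HBE1 lay between them with no further CTCF peak. Neither site was strong within the list: 217 CTCF peaks had exactly the fold of the first site, which was in the strongest 56.1%, and the second was in the strongest 34.0%.

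H3K27ac began 618 kb below HBB and 415 kb above HBE1. The last peak before the cluster was at 4629005 to 4629432, with a fold of 6.34 from 30 fragments (interval 20.2 to 42.8). The first after it was at 5705181 to 5706343, with a fold of 10.3 from 42 fragments (interval 30.3 to 56.8), followed by a weaker one at 5706426 to 5706948 with a fold of 5.51 from 22 fragments. The stretch between, from 4629433 to 5705180, was 1076 kb long. It did not lengthen with only peaks of a −log10 q of 10 or more, or with only the stronger peaks by fold. Both edge peaks were kept in each case. By the given positions the locus control region lay inside this stretch, so it had no H3K27ac peak.

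**Figure D3:**
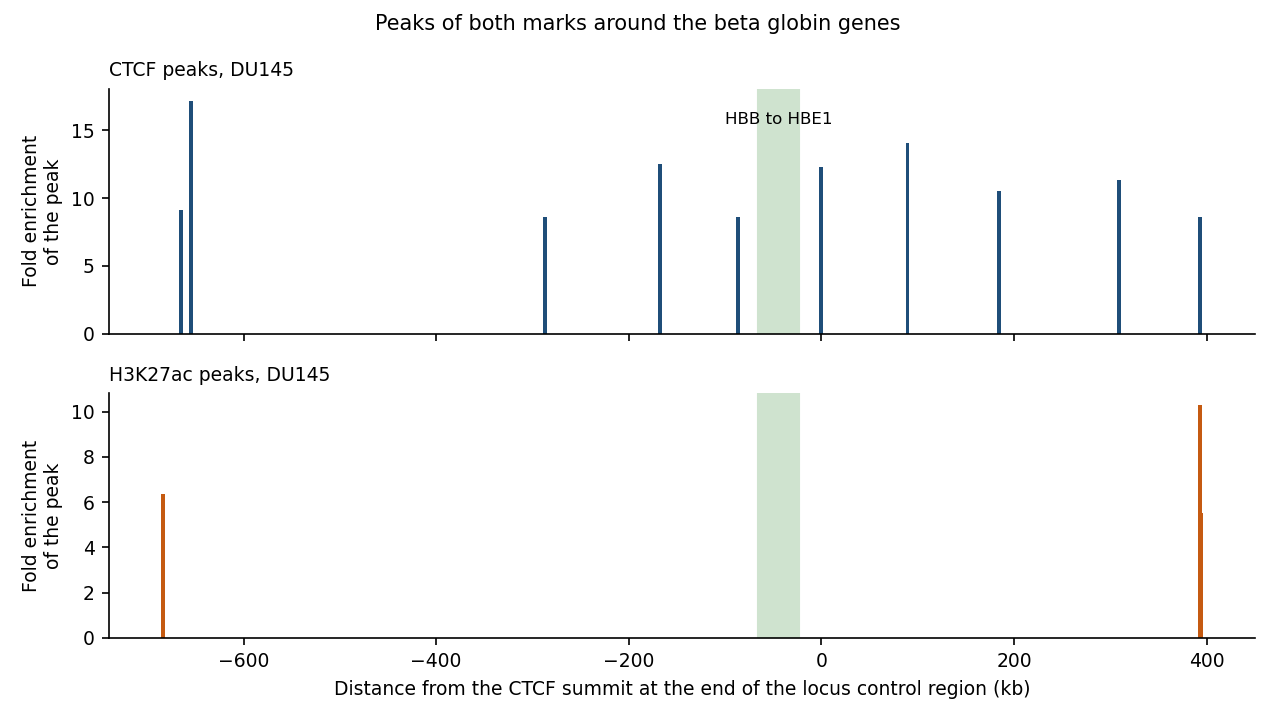
Fold enrichment of CTCF peaks (top) and H3K27ac peaks (bottom) across the H3K27ac-free stretch around the beta globin genes in DU145, 1 library each, by distance in kb from the CTCF summit at the end of the locus control region; bars are drawn wider than the peaks and green marks HBB to HBE1. CTCF peaks recur through the 1076 kb stretch, and H3K27ac peaks stand only at its ends.

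CTCF was not confined to the borders of the beta cluster. The acetylation-free stretch held 9 CTCF peaks, 5 below HBB and 4 above HBE1, with folds from 8.62 to 17.2 and a median of 11.3. The sites next to the framing pair lay just outside the window. The lower, at 5145156 to 5145608, was 4.57 kb outside it by its summit and had a fold of 12.6 from 54 fragments (interval 40.6 to 70.5). The upper, at 5402041 to 5402342, was 2.18 kb outside and had a fold of 14.1 from 48 fragments (interval 35.4 to 63.6). From 5025744 to 5621816, successive summits were 119.5, 80.8, 86.5, 89.5, 95.5 and 124 kb apart, and the 86.5 kb across the globin genes lay within the range of the others. Below 5025744, the next summit was 368 kb away, so this range holds for part of the stretch only. The counting intervals of the framing pair and of the sites at 5145156 and 5402041 all overlapped one another. That of the framing site at 5226089, 19.4 to 41.6 from 29 fragments, met that of the site at 5145156 only at its edge. Overlap of intervals does not show that sites are equally strong. Towards the lower end of the stretch, 2 sites lay 10.7 kb apart at 4647467 and 4658075, and the second had the highest fold of the 9, 17.2 from 59 fragments. The first acetylated peak above the cluster overlapped a CTCF peak, at 5705825 to 5706180 (fold 8.62, 29 fragments).

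CTCF peaks numbered 45.8 per Mb in the alpha window, 3.86 times the 11.9 per Mb of all assembled chromosomes. H3K27ac peaks numbered 83.3 per Mb there, 5.04 times the overall 16.5 per Mb. The beta window had 8.00 CTCF peaks per Mb, 0.675 times that of all assembled chromosomes. This rests on 2 peaks: widened by 50 kb on either side the window had 4, or 11.4 per Mb. H3K27ac peaks covered 5.94% of the bases of the alpha window and 0% of the beta window, against 1.42% overall. Cut into consecutive bins of 240 kb, 2.40% of bins had 11 or more CTCF peaks and 4.82% had 20 or more H3K27ac peaks. Of bins of 250 kb with at least 1 CTCF peak, 32.1% had 0 H3K27ac peaks, as the beta window did, and of the 1601 bins with exactly 2 CTCF peaks 727 had 0, 45.4%. Over all bins of this size the share was 46.3%. Bins and overall densities run from the first to the last peak of each chromosome, so unassembled sequence, which can hold no peak, is included. That raises the 46.3% and lowers the overall densities beside which the windows are set. Among the 84 bins of 240 kb with exactly 11 CTCF peaks, 1 had 0 H3K27ac peaks.

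The acetylation-free stretch was longer at the beta than at the alpha genes. The beta stretch ranked 456th of 49758 gaps between H3K27ac peaks, so 0.916% were at least as long, and the alpha gap ranked 8516th, with 17.1% at least as long. Gaps that span unassembled sequence are included. The beta stretch had 8.37 CTCF peaks per Mb, against a median of 4.99 over the 456 gaps at least as long, of which 69 had this density or more. Among the 2459 gaps of 40 to 60 kb, the size class of the alpha gap, 227 had 3 or more CTCF summits and 1081 had 0.

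**Figure D4:**
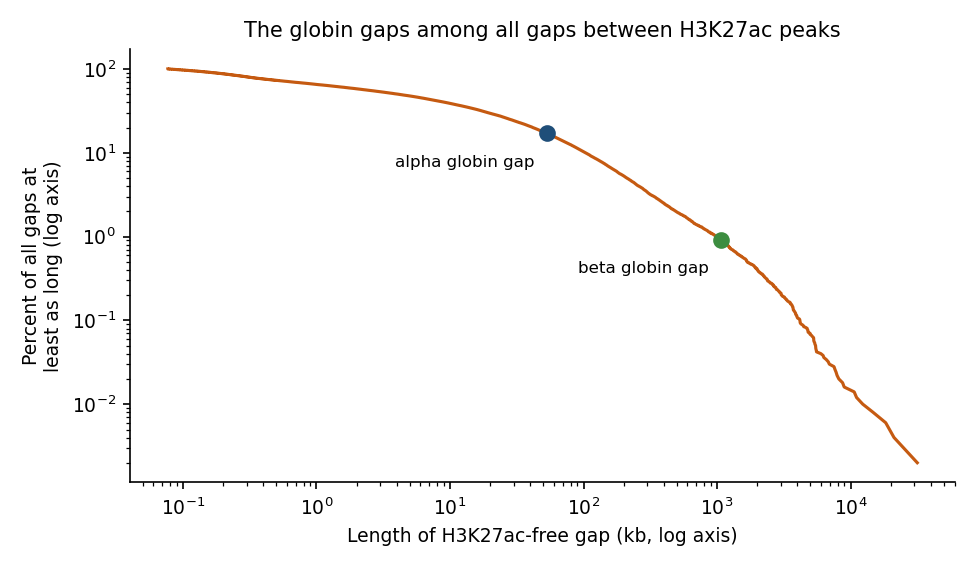
Percent of all gaps between H3K27ac peaks that are at least as long (y axis, log) against gap length in kb (x axis, log), with the gaps around the alpha and beta globin genes as points. The alpha gap of 52.9 kb sits at 17.1% and the beta gap of 1076 kb at 0.916%.

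Local background is the number of fragments that the peak caller expected at a summit. For CTCF it is in fragments multiplied by 0.911, unlike the fragment numbers given above. The labels list a DU145 and a LNCaP input, and do not say which of them, if any, was used for it. The local background was 2.18 at both beta sites, the most common level of the CTCF list, with 30.9% of its peaks at or below it. It lay between 2.18 and 5.00 at the alpha CTCF sites, and for the alpha H3K27ac peaks between 3.18 and 4.67. The highest CTCF background, 5.00, was at the weak peak at 65213.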

How the data were processed

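The deposited peak lists of 2 libraries, DU145 CTCF and DU145 H3K27ac, were analysed. Formaldehyde-fixed chromatin was sheared with a sonicator, per the labels' protocols. Reads were aligned with Bowtie to hg19 and peaks called with MACS2, per the submitters' processing notes, which as used here name no version or setting. Each list belongs to 1 sample. The deposited columns are positions, a score in whole numbers, fold enrichment over local background as a linear ratio, and p-values and q-values as −log10, of which the lowest −log10 q was 1.31 in each list. Fold enrichment was used within 1 list only.

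Fragments at a summit and the local background were solved from the deposited fold and −log10 p with a tolerance of 0.002, as whole numbers multiplied by 0.911 for CTCF and by 1 for H3K27ac. This solved 100% of CTCF and 99.6% of H3K27ac peaks, with medians of 45 and 23 fragments. The solver was tested on simulated data. Exact Poisson intervals (95%) cover counting error only, and PCR copies are not independent molecules. The Wilson interval (95%) treats peaks as independent draws, which neighbouring peaks of 1 locus are not. The libraries were not averaged, and no test was made. Peaks named are all those the text turns on, with the strongest and those nearest to the globin genes. The windows, gene lists and measures were chosen with earlier results of these data known. A fixed list of erythroid regulators, which needs gene positions in hg19, was not analysed here. Python 3.11.15, numpy 2.4.6, pandas 2.3.3 and scipy 1.17.1 were used. The alternatives tried were a stricter q, other overlap rules, wider windows and stronger peaks.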

Additional observations from a re-analysis of the deposited data

How the results depend on the processing

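Of 26 alternatives, 20 were counted as keeping the value and 6 as moving it. The 20 are no measure of stability, since those for the beta H3K27ac count and the beta overlap could not have moved it. The alpha overlap share counted as kept although it fell from 18.2% to 9.09% with the CTCF summit rule. Restricted to a −log10 q of at least 10, the alpha window had 11 H3K27ac peaks, its H3K27ac-free gap was 89.3 kb and its median CTCF fold was 14.2. With the H3K27ac peaks at or above the median fold the alpha gap was 61.4 kb, and over CTCF peaks without H3K27ac the median CTCF fold was 15.1. Widening the beta window by 50 kb on either side gave 4 CTCF peaks. The beta gap of 1076 kb and the 0 H3K27ac peaks of the beta window were unchanged under the alternatives run for them. The 0 could not have changed: a stricter list only removes peaks, and the widened window still lay inside the gap. The gap could only have lengthened, and the peaks at its edges, with −log10 q of 14.8 and 29.9, were kept. No paired analysis was possible because each mark has 1 library. With 1 library per mark the spread between cultures is unknown, and weak peaks rest on as few as 10 fragments.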
